A study of Mus musculus with 18 samples.

Results

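The genes described here are the Toll-like receptor family of mouse macrophages, Tlr1, Tlr2, Tlr3, Tlr4, Tlr6, Tlr7, Tlr8, Tlr9 and Tlr13, with Cd14, the co-receptor that several of them use. They were taken by name from a table of gene counts: 10 of its 48794 genes, and all 10 were among the 13177 with enough counts to be tested. The cells were macrophages grown from bone marrow of male C57BL/6 mice over 7 days with rhM-CSF at 50 ng/mL, and every group then received rhM-CSF at 10 ng/mL for 24 h. Control had no other agent, IL4_IL13 had rmIL-4 and rmIL-13 as well, and IL4_IL13_TNFa had rmIL-4, rmIL-13 and rmTNFα, each cytokine at 10 ng/mL. Each group had 6 RNA-seq libraries, numbered 1 to 6. No group with TNFα alone is analysed here, so the values show TNFα only on top of IL-4 and IL-13. Whether libraries of the same group had their own animal or culture is not in the labels, and p-values measure the spread between libraries, which may be technical.

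Toll-like receptors bind molecules of microbes and signal through adaptors, above all MyD88, to NF-κB, AP-1 and interferon regulatory factors. TLR4 with its co-receptor CD14 recognises bacterial lipopolysaccharide at the cell surface. TLR2 pairs there with TLR1 or TLR6 to recognise bacterial lipopeptides. The others sit in endosomes and read nucleic acids: TLR3 double-stranded RNA, TLR7 and TLR8 single-stranded RNA and its breakdown products, TLR9 DNA with unmethylated CpG, and TLR13, which people lack, bacterial ribosomal RNA. IL-4 and IL-13 drive macrophages to the alternative activation state through STAT6, and TNFα activates NF-κB.

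The libraries held 14793404 to 20056125 counts, and the members' counts ran from 52 for Tlr9 in a library of IL4_IL13_TNFa to 10786 for Tlr13 in Control 1. Levels are given as CPM, the count relative to the library's TMM-scaled total. Differences were tested by edgeR's quasi-likelihood method, and p-values were adjusted by Benjamini-Hochberg over all genes tested, with a threshold of 0.05. Control 1 stood apart: 1836 of its genes were over 2-fold away from the remaining Control libraries' mean, where no other library reached more than 393 against its own group. It lay below every other Control library for 9 of the 10 members and above them for Tlr13, so Control values are given with and without it where it matters. Macrophage markers were present throughout, with all 7 at a mean of 1 CPM or more in Control and IL4_IL13 and 6 in IL4_IL13_TNFa, where Fcgr1 averaged 0.999 CPM. Their summed level moved with treatment, from 13573 to 24309 CPM in Control (from 20370 without Control 1) to 7855 to 9571 CPM in IL4_IL13 and 8159 to 8948 CPM in IL4_IL13_TNFa, and its part in the members' values was not tested. The largest marker in Control was Lyz2, which averaged 12005, 2848 and 3190 CPM in the groups. Fcgr1 averaged 130, 21.8 and 0.999 CPM. Cd68 alone was higher in IL4_IL13 than in Control, at 760, 1080 and 850 CPM in the groups, so the markers did not move together. In such bulk RNA, fewer cells of a type and less RNA per cell cannot be told apart.

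Promoter sequence is shown for 3 members that took different courses: Tlr2, which fell with IL-4 and IL-13 and rose with TNFα, Tlr8, for which no difference passed the test until TNFα was added, and Tlr9, which fell at both steps. The sequences are RefSeq's (GRCm38.p6), 5′ to 3′ on the gene's strand, and show only bases upstream of the first annotated exon. They run over chr3:83841768-83841858 for Tlr2 (minus strand), chrX:167264330-167264579 for Tlr8 (minus strand) and chr9:106222348-106222597 for Tlr9 (plus strand). Capitals mark matches to the motifs searched on both strands: the NF-κB consensus, TTCNNNGAA, TTCNNNNGAA, GAAANNGAAA (a repeat bound by interferon regulatory factors, in 3.44% of windows) and GAGGAAGT. The promoter table matched 7 of the 10 members, some with more than 1 start site, and held no window for Tlr4, Tlr7 or Cd14. Positions count from the RefSeq start site.
Tlr2: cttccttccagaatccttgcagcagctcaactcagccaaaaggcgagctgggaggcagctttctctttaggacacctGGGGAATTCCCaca
Tlr8: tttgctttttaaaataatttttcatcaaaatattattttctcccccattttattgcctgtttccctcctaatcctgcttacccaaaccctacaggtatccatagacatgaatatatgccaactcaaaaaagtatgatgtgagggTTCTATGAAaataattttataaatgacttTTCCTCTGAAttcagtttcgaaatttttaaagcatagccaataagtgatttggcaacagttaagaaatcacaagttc
Tlr9: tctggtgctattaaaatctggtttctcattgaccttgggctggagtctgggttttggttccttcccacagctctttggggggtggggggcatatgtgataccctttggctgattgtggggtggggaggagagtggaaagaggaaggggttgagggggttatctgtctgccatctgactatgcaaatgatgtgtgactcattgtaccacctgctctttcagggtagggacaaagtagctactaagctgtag
The capitals in Tlr2 are 2 overlapping matches to the NF-κB consensus, which 4.51% of all 32851 promoter windows of 300 bases in the table hold. Another match in the window of Tlr2, at -8 from the start site, lies outside the part shown. The window of Tlr3, which fell at both steps, holds a match as well, at -211 from its start site. No window of Tlr1 or Tlr6, the other members higher with TNFα, holds one. Windows of Tlr1 hold GAGGAAGT at -23 and TTCNNNGAA at -228 from their start sites. Those of Tlr6 hold GAAANNGAAA at -116 and -110 and TTCNNNGAA at -3 and 8. Tlr8 holds TTCNNNGAA, the interferon-γ activated site spacing (8.3% of windows), at -106 and TTCNNNNGAA, the spacing that STAT6 prefers (6.95%), at -77 from its start site. No searched motif lies in the part of Tlr9 shown, and its window holds GAGGAAGT, the PU.1 core (3.2%), on the opposite strand at 11 bases past the start. These are matches of letters and were not tested as binding sites.

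In 7 of the 10 members the level differed between IL4_IL13 and Control, with Tlr4 higher and Tlr2, Tlr3, Tlr7, Tlr9, Tlr13 and Cd14 lower. Over all genes tested, 59.0% were called, that is, passed the threshold, 29.3% higher and 29.7% lower. Adding TNFα changed all 10 members, with Tlr1, Tlr2 and Tlr6 higher and the other 7 lower (Tlr1 and Tlr6 were not called with library totals alone), against 59.6% of all genes, 30.3% higher and 29.3% lower. Between IL4_IL13_TNFa and Control, 9 members differed, with Tlr1 higher (not called with library totals alone) and 8 lower, against 73.8% of all genes, 36.4% higher and 37.3% lower. The members' median log2 fold changes were -0.75, -0.68 and -0.99 in these comparisons, and those of all genes -0.0024, 0.003 and -0.0221. The numbers called lie not far from the background in IL4_IL13 against Control (7 of 10) and in IL4_IL13_TNFa against Control (9 of 10). With TNFα added all 10 were called. Most of the members called were lower, 6, 7 and 8 in the 3 comparisons, and no test set these numbers against the background. Without Control 1 the counts of higher and lower members were the same, 1 and 6, 3 and 7, and 1 and 8. The 3 comparisons share their groups of libraries in pairs, so their values are set side by side.

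With libraries scaled by their totals alone, the median log2 fold change of all genes moved to -0.20 for added TNFα and -0.27 for IL4_IL13_TNFa against Control, and the share of called genes that were higher fell from 50.9% to 27.5% and from 49.4% to 32.7%. Under that scaling 8 members were called for added TNFα, 1 higher and 7 lower, and 8 in IL4_IL13_TNFa against Control, all lower. The rises of Tlr1 and Tlr6 lost their call there, and the directions of the other members stayed, apart from Tlr6 in IL4_IL13_TNFa against Control and Tlr1 in IL4_IL13 against Control, neither of which was called.

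**Figure D1:**
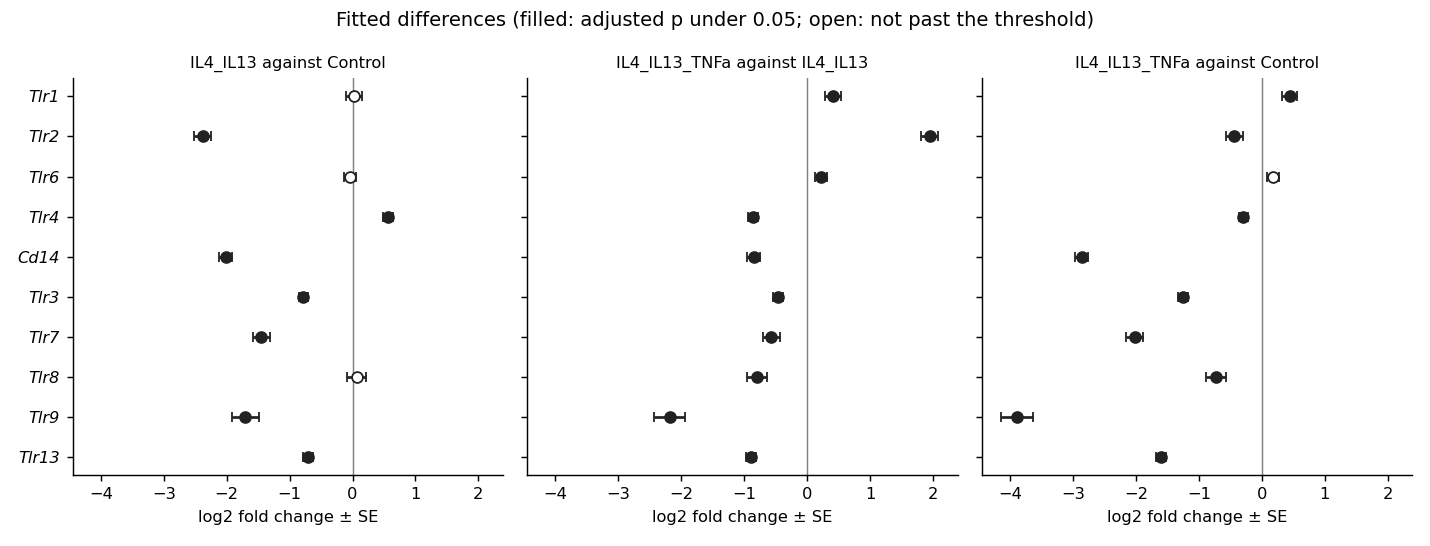
Log2 fold change ± SE of each member in the 3 comparisons, from edgeR's fit of all 18 libraries; filled points passed the threshold and open points did not. Tlr4 is the 1 filled point right of 0 in IL4_IL13 against Control, Tlr2 moves furthest right when TNFα is added, and Tlr9 lies furthest left in IL4_IL13_TNFa against Control.

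Among the surface receptors, Tlr2 had the largest fall with IL-4 and IL-13 and the largest rise with TNFα of the 10 members. Its gene lies on chromosome 3 at 83836272 to 83841767 (GRCm38, minus strand). It ranged from 134 to 249.6 CPM with a median of 232 in Control, from 30.6 to 49.9 CPM with a median of 41.7 in IL4_IL13, and from 140.5 to 189 CPM with a median of 157 in IL4_IL13_TNFa. Every IL4_IL13 library lay below every library of the other groups. The fall was 5.22-fold, a log2 fold change of -2.38 ± 0.14 (SE, edgeR adjusted p = 6.77e-11), and the rise with TNFα 3.86-fold, or 1.95 ± 0.14 (adjusted p = 5.65e-10). IL4_IL13_TNFa stayed 1.35-fold below Control (-0.44 ± 0.13, adjusted p = 0.00605). Those groups overlapped through Control 1 at 134 CPM, and the other Control libraries, at 205 to 249.6 CPM, all lay above IL4_IL13_TNFa. The log2 fold change between them was -0.54 ± 0.09 without Control 1 (edgeR adjusted p = 4.33e-05).

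Tlr1, a partner of TLR2 for triacylated lipopeptides, passed the test with TNFα added and not with IL-4 and IL-13 alone. It held 29.2 to 60.8 CPM (median 58.7) in Control, 50.9 to 57.5 CPM (median 53.6) in IL4_IL13 and 66.7 to 76.4 CPM (median 71.5) in IL4_IL13_TNFa. All IL4_IL13_TNFa libraries lay above all others, while Control and IL4_IL13 overlapped and Control 1 was lowest. The rise on adding TNFα was 1.33-fold (0.41 ± 0.12, edgeR adjusted p = 0.00775), and 1.36-fold above Control (0.44 ± 0.12, adjusted p = 0.00375). With library totals alone these values were 0.21 (adjusted p = 0.158) and 0.19 (0.172). Without Control 1 the second was 0.32 (adjusted p = 2.62e-05). For IL4_IL13 against Control, Tlr1 gave 0.03 ± 0.12 (adjusted p = 0.86).

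Tlr6, the partner of TLR2 for diacylated lipopeptides, moved least of the members with TNFα added and in IL4_IL13_TNFa against Control. Its levels were 15.5 to 23.3 CPM (median 21.5) in Control, 17.8 to 21.3 CPM (median 20.2) in IL4_IL13 and 20.1 to 26.2 CPM (median 23.1) in IL4_IL13_TNFa. The groups overlapped in every comparison. Its 1.17-fold rise with TNFα (0.22 ± 0.09, edgeR adjusted p = 0.042) passed the threshold narrowly and lost its call under library totals (0.02, adjusted p = 0.894) and with no filter on low counts (adjusted p = 0.0566). It was also lost when any of 8 single libraries was left out, with adjusted p from 0.0547 to 0.0989: Control 5, IL4_IL13 1, 3, 4 and 6, and IL4_IL13_TNFa 1, 2 and 4. The value against Control was -0.04 ± 0.09 for IL4_IL13 (adjusted p = 0.706) and 0.18 ± 0.09 for IL4_IL13_TNFa (adjusted p = 0.0796). Tlr1 and Tlr6 are neighbours on chromosome 5, at 64924679 to 64933563 and 64952031 to 64960097, and are near copies in part: 7.89% of the 100-base stretches of Tlr1 exons occur in Tlr6. Their counts could have been split between them, while no other member shared a 100-base stretch with another gene.

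Tlr4 was the single member that rose with IL-4 and IL-13, and it fell when TNFα was added. The gene lies on chromosome 4 at 66827584 to 66930284. Its level ranged from 137 to 183 CPM with a median of 161 in Control, from 197 to 261 CPM with a median of 242 in IL4_IL13, and from 117 to 147 CPM with a median of 128 in IL4_IL13_TNFa. Every IL4_IL13 library lay above all others, the reverse of Tlr2. The rise was 1.48-fold (0.57 ± 0.08, edgeR adjusted p = 4.21e-06) and the fall with TNFα 1.81-fold (-0.86 ± 0.08, adjusted p = 1.22e-08). IL4_IL13_TNFa ended 1.22-fold below Control (-0.29 ± 0.08, adjusted p = 0.00193), with an overlap through Control 1 at 137 CPM and none with the other Control libraries, at 159 to 183 CPM. The log2 fold change was -0.33 ± 0.07 without Control 1 (edgeR adjusted p = 0.000209).

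Cd14, which hands lipopolysaccharide to TLR4 and also serves TLR2 and endosomal receptors, fell at both steps. Its range was 325 to 539 CPM (median 497) in Control, 103 to 132 CPM (median 117) in IL4_IL13 and 56.8 to 77.5 CPM (median 64.2) in IL4_IL13_TNFa. No library of 1 group reached the range of another, Control 1 at 325 CPM included. IL-4 with IL-13 lowered it 4.05-fold (-2.02 ± 0.11, edgeR adjusted p = 1.12e-11), and TNFα a further 1.80-fold (-0.85 ± 0.10, adjusted p = 1.03e-06). From Control to all 3 cytokines the fall was 7.28-fold (-2.86 ± 0.11, adjusted p = 3.05e-14). Receptor and co-receptor thus moved in opposite directions with IL-4 and IL-13 and in the same direction with TNFα.

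**Figure D2:**
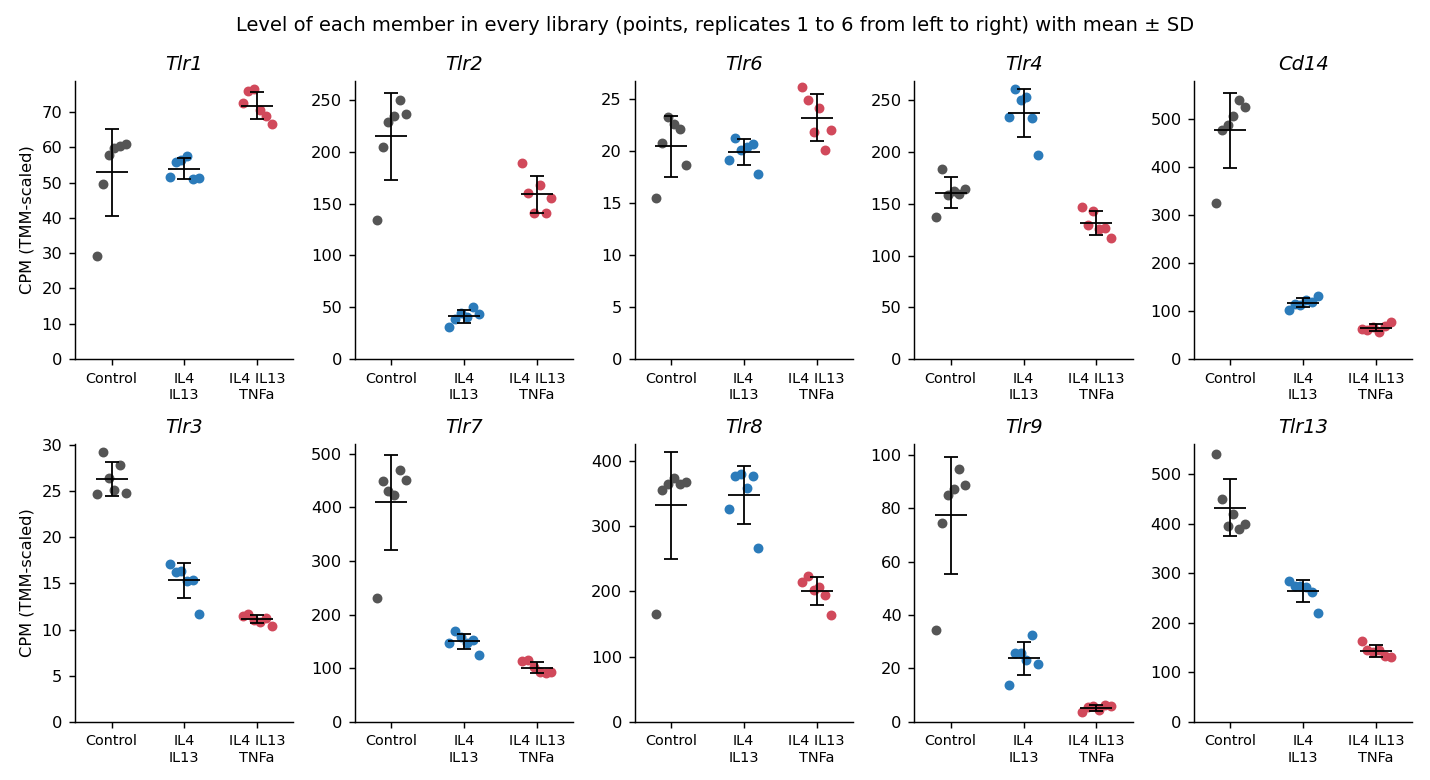
CPM of each member in every library, by group, 6 libraries each, with axes from 0; points are libraries and black marks the mean ± SD. Tlr2 is lowest and Tlr4 highest in IL4_IL13, Cd14 and Tlr9 step down from group to group, and the low point in Control for 9 members is Control 1.

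Among the endosomal receptors, Tlr9 fell furthest. The gene lies on chromosome 9 at 106222598 to 106226883. It held 34.6 to 94.7 CPM (median 86.2) in Control, 13.8 to 32.5 CPM (median 24.5) in IL4_IL13 and 3.56 to 6.33 CPM (median 5.61) in IL4_IL13_TNFa, where the 6 libraries had 52 to 94 reads each. The groups did not overlap, although Control 1 at 34.6 CPM came close to the highest IL4_IL13 library. The first step was 3.26-fold down (-1.71 ± 0.22, edgeR adjusted p = 2.59e-06) and the second 4.55-fold (-2.19 ± 0.24, adjusted p = 3.35e-07). Together they made 14.8-fold (-3.89 ± 0.25, adjusted p = 7.78e-11). Markers of plasmacytoid dendritic cells and B cells, which express TLR9, were read beside it. The 5 B cell markers summed to 1.41 to 3.20 CPM in Control, 0.905 to 1.52 CPM in IL4_IL13 and 0.727 to 1.81 CPM in IL4_IL13_TNFa, mostly Cd79b and Pax5. Of 6 plasmacytoid markers, 2 averaged 1 CPM or more in Control and in IL4_IL13 and 3 in IL4_IL13_TNFa, the added one being Ccr9 at 1.404 CPM against 0.282 in Control. Klk1 had no count in any library, Ly6d had none in Control or IL4_IL13 and averaged 0.0104 CPM in IL4_IL13_TNFa, and Siglech averaged 0.102, 0.0409 and 0.0334 CPM in the groups. Together the plasmacytoid markers summed to 257 to 371 CPM in Control, 163 to 178 CPM in IL4_IL13 and 158 to 191 CPM in IL4_IL13_TNFa, nearly all of it Tcf4 and Bst2, which other cells express too. The part of either marker list in the fall of Tlr9 was not tested.

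Tlr7 and Tlr8, neighbours on the X chromosome at 167304929 to 167330558 and 167242696 to 167264329, differed in their response to IL-4 and IL-13. Tlr7 ran from 230.2 to 470.2 CPM with a median of 440.2 in Control, from 125 to 169.7 CPM with a median of 149.9 in IL4_IL13, and from 90.2 to 114 CPM with a median of 97.7 in IL4_IL13_TNFa. The Tlr7 groups were fully separate. It was 2.73-fold lower with IL-4 and IL-13 (-1.45 ± 0.13, edgeR adjusted p = 3.87e-08), 1.49-fold lower again with TNFα (-0.57 ± 0.13, adjusted p = 0.00107) and 4.06-fold lower in all (-2.02 ± 0.14, adjusted p = 1.48e-10).

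Tlr8 held 165 to 374 CPM (median 364) in Control, 267 to 380.1 CPM (median 368) in IL4_IL13 and 163 to 224 CPM (median 204) in IL4_IL13_TNFa. Control 1, at 165 CPM, lay far under the other Control libraries, at 355 to 374 CPM, and inside the range of IL4_IL13_TNFa. IL-4 with IL-13 gave 0.07 ± 0.15 (edgeR adjusted p = 0.721), and -0.07 without Control 1 (adjusted p = 0.475). TNFα lowered Tlr8 1.73-fold (-0.79 ± 0.15, adjusted p = 0.00022), with no overlap between IL4_IL13 and IL4_IL13_TNFa. Against Control the fall was 1.66-fold (-0.73 ± 0.15, adjusted p = 0.000349), and -0.86 ± 0.08 without Control 1 (adjusted p = 1.12e-08).

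Tlr13 stepped down at both treatments, from 389.6 to 542 CPM with a median of 411 in Control, from 220.0 to 284 CPM with a median of 274 in IL4_IL13, and from 131 to 163 CPM with a median of 142 in IL4_IL13_TNFa. Its groups did not overlap, and here Control 1 was the highest library of all. The steps were 1.64-fold (-0.71 ± 0.08, edgeR adjusted p = 6.07e-07) and 1.85-fold (-0.89 ± 0.08, adjusted p = 2.09e-08), or 3.03-fold from Control to all 3 cytokines (-1.60 ± 0.08, adjusted p = 2.61e-12). The gene is the third member on the X chromosome, at 106143204 to 106160493.

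Tlr3, which signals through the adaptor TRIF and not MyD88, was among the lowest members and also fell at both steps. It ran from 24.7 to 29.2 CPM with a median of 25.8 in Control, from 11.7 to 17.1 CPM with a median of 15.8 in IL4_IL13, and from 10.4 to 11.7 CPM with a median of 11.2 in IL4_IL13_TNFa. The ranges of the last 2 groups nearly touched, with IL4_IL13 6 the lowest of its group, and none overlapped. The falls were 1.72-fold (-0.78 ± 0.08, edgeR adjusted p = 9.05e-08), 1.38-fold (-0.47 ± 0.08, adjusted p = 5.04e-05) and 2.37-fold against Control (-1.25 ± 0.08, adjusted p = 5.04e-11). An exon of Gm45542 on the opposite strand covers 7.32% of Tlr3's exon bases, on chromosome 8 at 45395665 to 45411080, and the strand setting of the counting is not given in the sources used here.

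Groups did not overlap for 7 members between IL4_IL13 and Control, 1 higher and 6 lower, where 12.5% and 14.2% of all genes tested were so separated. For added TNFα the numbers were 2 higher and 7 lower (23.3% and 21.6% of all genes), and against Control with all 3 cytokines 1 higher and 5 lower (26.1% and 25.1%). The last count leaves out Tlr2, Tlr4 and Tlr8, which overlapped through Control 1 alone. Falls of 2-fold or more that passed the test were seen for Tlr2, Tlr7, Tlr9 and Cd14 in IL4_IL13 against Control, 4 members with 12.4% of all genes past 2-fold in either direction. With TNFα added to IL-4 and IL-13, 2 members passed 2-fold, Tlr2 upward and Tlr9 downward, with 17.5% of all genes, a share near that background. In IL4_IL13_TNFa against Control falls of that size were seen for Tlr3, Tlr7, Tlr9, Tlr13 and Cd14, 5 members with 26.6% of all genes.

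Ratios of 2 members within a library do not depend on how libraries are scaled. Log2 ratios of counts plus 0.5 were compared for 4 pairs in 3 comparisons by exact two-sided permutation tests, with p adjusted over the 12, where 6 against 6 libraries cannot give a raw p below 0.00216. Tlr7 to Tlr8 was 0.32 ± 0.10 in Control, -1.21 ± 0.09 in IL4_IL13 and -0.99 ± 0.12 in IL4_IL13_TNFa (mean ± SD, n = 6). The counts of Tlr7 were above those of Tlr8 in every Control library and below them in every treated library. The ratio changed by -1.53 with IL-4 and IL-13 (exact permutation adjusted p = 0.00432) and by 0.22 when TNFα was added (exact adjusted p = 0.0195). Without the libraries numbered 1 the second change was also 0.22, and its call was lost (exact adjusted p = 0.0529). Control 1, low in both genes, had the highest ratio of its group, where the ratios ran from 0.18 to 0.48. The change with IL-4 and IL-13 is the test that the neighbouring genes responded differently to IL-4 and IL-13.

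Cd14 to Tlr4 was 1.55 ± 0.20 in Control, -1.01 ± 0.23 in IL4_IL13 and -1.01 ± 0.24 in IL4_IL13_TNFa. It dropped by 2.57 with IL-4 and IL-13 (exact permutation adjusted p = 0.00432), and adding TNFα gave a difference of 0.0076 (exact adjusted p = 0.952), with the groups overlapping. Cd14 fell 1.80-fold and Tlr4 1.81-fold at that step. Tlr2 to Tlr4 was 0.39 ± 0.27 in Control, -2.54 ± 0.30 in IL4_IL13 and 0.27 ± 0.18 in IL4_IL13_TNFa. It dropped by 2.93 and regained 2.81 (exact adjusted p = 0.00432 for each), and IL4_IL13_TNFa differed from Control by -0.12 (exact adjusted p = 0.428) with overlapping ranges. Without Control 1 that difference was -0.21 (exact adjusted p = 0.109).

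Tlr1 to Tlr6 was 1.34 ± 0.26, 1.44 ± 0.08 and 1.63 ± 0.13 in the same order of groups. It differed by 0.10 with IL-4 and IL-13 (exact permutation adjusted p = 0.487; 0.0132 and 0.952 without Control 1), 0.20 with TNFα (exact adjusted p = 0.0195) and 0.30 against Control (exact adjusted p = 0.0375). The groups overlapped in all 3, and the call against Control was lost with libraries paired by number (exact adjusted p = 0.0833). It was also lost when any of Control 1 to 5 or IL4_IL13_TNFa 2, 3, 5 and 6 was left out (exact adjusted p from 0.052 to 0.0751), with a difference of 0.21 without Control 1.

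**Figure D3:**
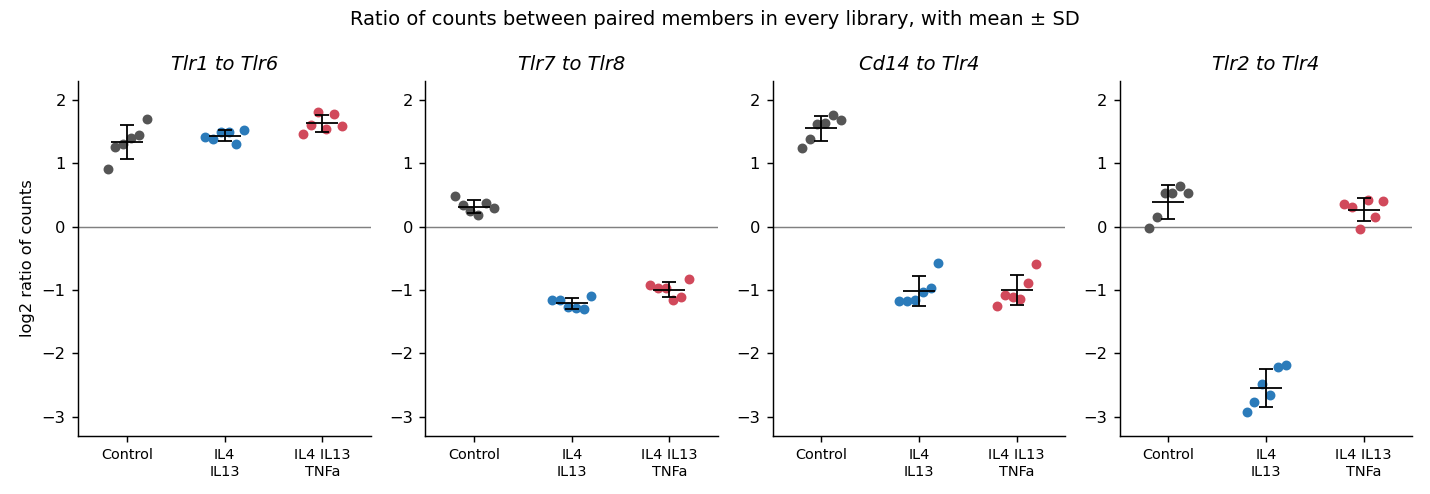
Log2 ratio of the counts of 4 pairs of members in each library, by group; points are libraries and black marks the mean ± SD of 6. Tlr7 to Tlr8 and Cd14 to Tlr4 drop from Control to IL4_IL13 and stay low, Tlr2 to Tlr4 drops and rises again, and the groups overlap for Tlr1 to Tlr6.

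Levels of different genes were compared per length, as RPKM, the CPM divided by the kilobases of the gene's exons. In Control, Cd14 led at 275 ± 45.0 RPKM (mean ± SD, n = 6), and its range lay above all others. Tlr13 (101 ± 13.4), Tlr7 (100.2 ± 21.8), Tlr8 (92.5 ± 22.8) and Tlr2 (71.3 ± 14.0) followed, each overlapping the next in range, although Tlr13 was above Tlr7 in 1 of 6 libraries, Control 1. Tlr4 (28.9 ± 2.68), Tlr9 (22.3 ± 6.33) and Tlr1 (15.8 ± 3.69) came next, overlapping in turn through Control 1 alone. Tlr6 (5.50 ± 0.788) and Tlr3 (5.06 ± 0.355) were lowest and overlapped. Without Control 1, Tlr7 (109 ± 4.51 RPKM, n = 5) came after Cd14, followed by Tlr8 (102 ± 1.95) and Tlr13 (95.6 ± 5.83), with neighbours among these 3 overlapping. Tlr2 (76.6 ± 5.43), Tlr4 (29.8 ± 1.85), Tlr9 (24.7 ± 2.13) and Tlr1 (17.2 ± 1.39) were then each clear of the next.

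In IL4_IL13 the order changed. Tlr8 was highest at 97.0 ± 12.4 RPKM, with Cd14 at 67.9 ± 5.76 and Tlr13 at 61.5 ± 5.35 overlapping in turn below it. Tlr4 (42.8 ± 4.14) and Tlr7 (36.7 ± 3.61) came next and overlapped, although Tlr4 was above Tlr7 in all 6 libraries. Tlr1 (16.1 ± 0.887) overlapped Tlr2 (13.7 ± 2.17), Tlr9 (6.84 ± 1.78) overlapped Tlr6 (5.34 ± 0.336), and Tlr3 (2.95 ± 0.369) was lowest. Cd14 had thus lost its lead, and Tlr2 had gone from the upper group of receptors to the lower.

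With TNFα added, Tlr8 (55.9 ± 5.88 RPKM) and Tlr2 (52.7 ± 6.03) were highest and overlapped. Cd14 (37.8 ± 4.18) overlapped Tlr13 (33.2 ± 2.67), and Tlr7 (24.7 ± 2.65), Tlr4 (23.6 ± 2.06) and Tlr1 (21.5 ± 1.16) overlapped in turn. Tlr6 (6.22 ± 0.607), Tlr3 (2.13 ± 0.0878) and Tlr9 (1.498 ± 0.311) followed with no overlap. Tlr9 had become the lowest member. Of the 27 neighbouring pairs in the 3 orders, 15 overlapped in range, and 12 did without Control 1. With the length of the longest transcript in place of all exons, 16 overlapped and 2 orders changed: Tlr3 (5.98 RPKM) stood above Tlr6 (5.57) in Control, and Tlr4 (32.2) above Tlr7 (25.9) in all 6 libraries of IL4_IL13_TNFa.

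**Figure D4:**
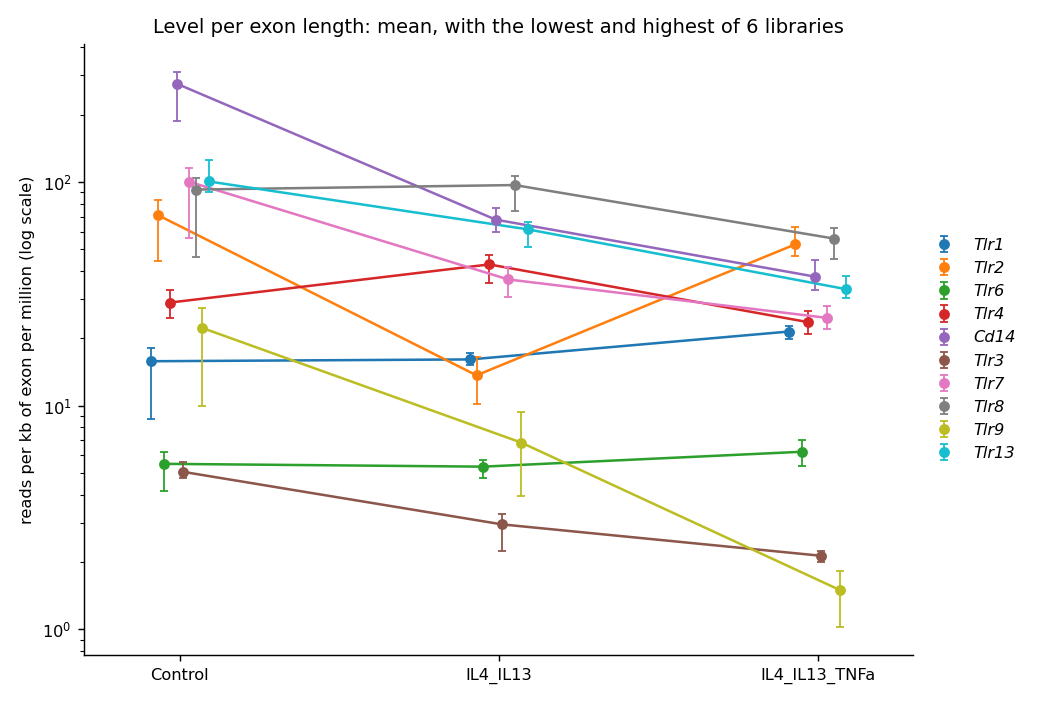
RPKM of the 10 members in each group (log axis); points are means and bars run from the lowest to the highest of 6 libraries. Cd14 leads in Control, Tlr8 in IL4_IL13, and Tlr8 and Tlr2 in IL4_IL13_TNFa, while Tlr9 drops to the bottom.

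The 9 receptors summed to 442 ± 57.8 RPKM in Control, 283 ± 26.0 in IL4_IL13 and 221 ± 16.9 in IL4_IL13_TNFa (SD, n = 6). The 4 surface receptors Tlr1, Tlr2, Tlr4 and Tlr6 made up 27.4% ± 1.299 of it in Control, 27.6% ± 1.18 in IL4_IL13 and 47.0% ± 1.38 in IL4_IL13_TNFa. The share lay between 45.3% and 49.1% in the last group, clear of the 25.2% to 29.8% of the other libraries. Within it, Tlr2 went from 16.0% of the receptor sum to 4.87% and 23.8%, and Tlr4 from 6.60% to 15.1% and 10.7%. These sums are descriptions and were not tested.

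For each member, the gene with the most similar profile was taken as the one whose centred log2 CPM differed least from it on average over the 18 libraries. Tlr2 was nearest to Clec4d, a C-type lectin receptor, at a mean difference of 0.152 (means in Control, IL4_IL13 and IL4_IL13_TNFa of 307, 61.2 and 205 CPM). Tlr4 was nearest to Adcy7, an adenylyl cyclase, at 0.0981 (812, 1078 and 631 CPM). Both have the order of groups of their member: lowest in IL4_IL13 for Clec4d and highest in IL4_IL13 for Adcy7. That shared order follows from choosing the genes by likeness over the same libraries.

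Of the endosomal receptors, Tlr9 was nearest to Sgsh, a lysosomal enzyme that degrades heparan sulfate, at 0.193 (129, 46.5 and 8.05 CPM). Tlr7 was nearest to Notch1 (0.0878), Tlr8 to the adaptor Gab2 (0.105), Tlr13 to Prkacb, a catalytic subunit of protein kinase A (0.0826), and Tlr3 to Peli1, an E3 ubiquitin ligase of the TLR pathway itself (0.0628). Tlr1 was nearest to Arl10 (0.0878) and Tlr6 to Naip2, a sensor of bacterial secretion systems (0.0764). The median difference to all genes ran from 0.332 for Tlr6 to 1.41 for Tlr9, the members that moved least and most in IL4_IL13_TNFa against Control. Among the members themselves, Tlr1 and Tlr6 were each other's nearest at 0.147, and Tlr2 stood furthest from its nearest, Tlr1, at 0.888.

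Other mouse Toll-like receptor genes were near the floor. Tlr5, the flagellin receptor, averaged 2.56 CPM in Control, with 23 to 93 reads a library, and the 6 libraries of IL4_IL13 held 15 reads in all and those of IL4_IL13_TNFa 3. Its falls against Control passed the test (edgeR adjusted p = 1.01e-06 and 8.51e-08). Only its reads in Control took Tlr5 past the filter, so these p-values are not read as support. Tlr11 and Tlr12, receptors of protozoan profilin, had 10 and 1 reads in all of Control, 58 and 3 in IL4_IL13, and 72 and 44 in IL4_IL13_TNFa. Neither passed the filter for testing with all libraries. Without Control 1, Tlr11 passed the filter, through the groups where its reads were higher. It had 0 to 5 reads a library in Control, 4 to 16 in IL4_IL13 and 8 to 20 in IL4_IL13_TNFa. A test that depends on such a filter is not read here.

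Genes that work with the receptors were read from lists set by role, 72 of 75 listed genes being tested. In IL4_IL13 against Control 60 were called, 21 higher and 39 lower. With TNFα added 49 were called, 38 higher and 11 lower (27 and 24 with library totals alone), and in IL4_IL13_TNFa against Control 55, 30 higher and 25 lower (23 and 39 with library totals alone). With Control 1 left out, 73 were tested. IL4_IL13 against Control then had 24 higher and 41 lower, and IL4_IL13_TNFa against Control 32 and 30. Medians given with each list are of the log2 fold changes of its tested genes. Counts are set against the 59.0%, 59.6% and 73.8% of all genes called.

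Of the 4 accessory proteins of surface receptors that were tested, there were 1 higher and 3 lower (median -0.40) with IL-4 and IL-13, 1 higher and 2 lower (median -0.36) with TNFα and 1 higher and 2 lower (median -0.72) in IL4_IL13_TNFa against Control. Ly96, which encodes MD-2, the part of the TLR4 complex that holds lipopolysaccharide, was low throughout, at 10.6 ± 1.402 CPM in Control, 8.86 ± 0.905 in IL4_IL13 and 10.6 ± 0.638 in IL4_IL13_TNFa (mean ± SD, n = 6). Its 1.19-fold fall (edgeR adjusted p = 0.0227) and 1.20-fold rise (adjusted p = 0.0177) ran against those of Tlr4, but the rise lost its call with library totals alone (adjusted p = 0.588) and without the libraries numbered 1 (0.0552). Cd180, a TLR4 homologue, and Ly86, its MD-1 partner, fell at both steps: Cd180 from 274 ± 65.4 to 187 ± 30.4 and 100.5 ± 9.66 CPM, and Ly86 from 148 ± 37.1 to 81.7 ± 11.7 and 35.3 ± 3.19 CPM (adjusted p = 0.000112 or below for Ly86 and 0.00142 or below for Cd180). Cd36, a scavenger receptor that aids TLR2 with TLR6, rose 5.76-fold with IL-4 and IL-13 (adjusted p = 6.85e-09), from 404 ± 180.3 to 2328 ± 376 CPM, opposite to Tlr2, and held 2636 ± 316 CPM with TNFα. Lbp, the lipopolysaccharide-binding protein of serum, had 4, 2 and 0 reads in the groups.

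Genes for the folding, transport and processing of endosomal receptors, 14 in all, had 6 higher and 5 lower (median 0.07) with IL-4 and IL-13, 7 higher and 2 lower (median 0.12) with TNFα (3 and 6, median -0.09, with library totals alone) and 8 higher and 4 lower (median 0.40) in IL4_IL13_TNFa against Control. Unc93b1, the chaperone that carries these receptors to endosomes, held 935 ± 225 CPM in Control, 714 ± 141 in IL4_IL13 and 1036 ± 63.6 in IL4_IL13_TNFa, and its 1.45-fold rise with TNFα (edgeR adjusted p = 0.00646) lost its call with library totals alone (0.075). Hsp90b1, the gp96 chaperone, rose 1.76-fold (adjusted p = 3.14e-08) and Slc15a3, an endosomal peptide and histidine transporter, 2.48-fold (adjusted p = 4.25e-13) with IL-4 and IL-13.

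The proteases that cleave endosomal receptors went apart. Lgmn, asparagine endopeptidase, fell 3.45-fold with TNFα, to 181 ± 17.3 CPM from 626 ± 71.7 in IL4_IL13 and 1099 ± 187 in Control (edgeR adjusted p = 9.32e-11). Ctsl, cathepsin L, fell 3.42-fold at that step, from 793 ± 62.2 to 232 ± 22.0 CPM (adjusted p = 1.93e-13). Ctsk, cathepsin K, rose at both steps from a low level, 2.71 ± 1.12, 8.05 ± 1.45 and 27.1 ± 5.002 CPM in the groups, 10.0-fold in all (adjusted p = 4.8e-11). Ctss, cathepsin S, also rose at both steps, at 1938 ± 298, 3190 ± 505 and 5342 ± 270 CPM (adjusted p = 1.71e-05 and 8.24e-06). Ctsb, cathepsin B, averaged 5882, 6398 and 5651 CPM and was not called in any comparison of the main fit.

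Of 22 adaptors, kinases and ubiquitin ligases, there were 5 higher and 11 lower (median -0.13) with IL-4 and IL-13, 10 higher and 3 lower (median 0.15) with TNFα (6 and 8, median -0.05, with library totals alone) and 8 higher and 6 lower (median -0.01) against Control with all 3 cytokines (7 and 13, median -0.26, with library totals alone). Leaving out Control 1 gave 6 higher and 13 lower with IL-4 and IL-13, and 8 and 9 against Control with all 3 cytokines. Myd88, the adaptor of all members but Tlr3 and Cd14, followed the course of Tlr2 in small: 89.9 ± 8.82 CPM in Control, 60.8 ± 4.49 in IL4_IL13 and 84.9 ± 2.03 in IL4_IL13_TNFa (edgeR adjusted p = 4.21e-07 and 2.17e-06). In IL4_IL13_TNFa against Control Myd88 gave -0.08 (edgeR adjusted p = 0.236), and -0.13 without Control 1 (adjusted p = 0.0144). With library totals alone it was called lower, at -0.33 (edgeR adjusted p = 0.00012). Traf3, which serves the interferon branch, rose 3.22-fold with TNFα (adjusted p = 1.38e-13), the kinase Ikbke 2.70-fold (3.95e-08) and Ticam2, the TRAM adaptor of TLR4, 1.76-fold (5.57e-06), the last from 29.7 ± 4.91 to 52.2 ± 3.36 CPM. With IL-4 and IL-13, Ikbkg, the NEMO subunit of the IκB kinase, rose 1.94-fold (adjusted p = 4.31e-08), Irak2 fell 1.75-fold (3.43e-07) and Peli1 1.73-fold (2.88e-09).

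Among 8 transcription factors at the end of the pathway, there were 4 higher and 3 lower (median 0.07) with IL-4 and IL-13, 5 higher and 1 lower (median 0.50) with TNFα and 4 higher and 3 lower (median 0.21) (3 and 3, median -0.04, with library totals alone) in IL4_IL13_TNFa against Control. Leaving out Control 1 gave 5 higher and 3 lower in IL4_IL13_TNFa against Control. Irf7, which serves TLR7 and TLR9, fell 6.30-fold with IL-4 and IL-13, from 55.6 ± 21.6 to 8.79 ± 3.42 CPM (edgeR adjusted p = 3.51e-07), and rose 3.01-fold with TNFα (9.17e-05). Irf5 rose 1.86-fold with TNFα (adjusted p = 9.82e-11) and Nfkb1, an NF-κB subunit, 2.31-fold (5.39e-13). Atf3 rose 3.03-fold with IL-4 and IL-13 (adjusted p = 9.91e-10) and Fos fell 1.97-fold (7.92e-08).

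Negative regulators of the pathway, 13 in all, counted 4 higher and 9 lower (median -0.57) with IL-4 and IL-13, 7 higher and 2 lower (median 0.40) with TNFα (7 and 5, median 0.20, with library totals alone) and 7 higher and 6 lower (median 0.10) in IL4_IL13_TNFa against Control (4 and 7, median -0.15, with library totals alone). Irak3, the kinase-like inhibitor of MyD88 signalling, fell 2.09-fold from 39.0 ± 5.56 to 18.6 ± 1.56 CPM (edgeR adjusted p = 6.74e-09) and rose 1.74-fold with TNFα (2.18e-07). Tnfaip3, the NF-κB inhibitor A20, rose 12.9-fold with TNFα, from 13.1 ± 2.78 to 169 ± 8.46 CPM (adjusted p = 2.81e-14), and its partner Tnip1 2.45-fold (2.91e-13). Socs1, which curbs cytokine and TLR signalling, rose 34.1-fold with IL-4 and IL-13, from 1.42 ± 0.275 to 48.5 ± 6.11 CPM (adjusted p = 4.35e-16). Pik3ap1, the adaptor BCAP, fell 2.81-fold there (adjusted p = 7.6e-13) and Trim30a 2.48-fold (4.64e-08), while Sigirr, an inhibitory receptor at a low level, fell 5.04-fold with TNFα (1.08e-08).

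Cytosolic sensors outside the family, 10 genes, gave 1 higher and 7 lower (median -0.95) with IL-4 and IL-13, 8 higher and 1 lower (median 0.75) with TNFα and 2 higher and 3 lower (median -0.13) in IL4_IL13_TNFa against Control (1 and 7, median -0.38, with library totals alone). Leaving out Control 1 gave 2 higher and 7 lower with IL-4 and IL-13, and 2 and 5 in IL4_IL13_TNFa against Control. Ddx58, the RNA sensor RIG-I, fell 3.05-fold (edgeR adjusted p = 1.36e-07) and rose 2.14-fold (1e-05), at 105 ± 26.1, 34.5 ± 4.98 and 74.0 ± 14.3 CPM in the groups. Zbp1, a sensor of Z-form nucleic acid, fell 2.57-fold (0.000122) and rose 3.70-fold (2.41e-06). The related helicase Dhx58 fell 2.51-fold (2.56e-07), and the peptidoglycan sensor Nod2 rose 1.87-fold with TNFα (2.23e-07). Of the RNA-reading endosomal receptors Tlr3, Tlr7, Tlr8 and Tlr13, none rose with TNFα.

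**Figure D5:**
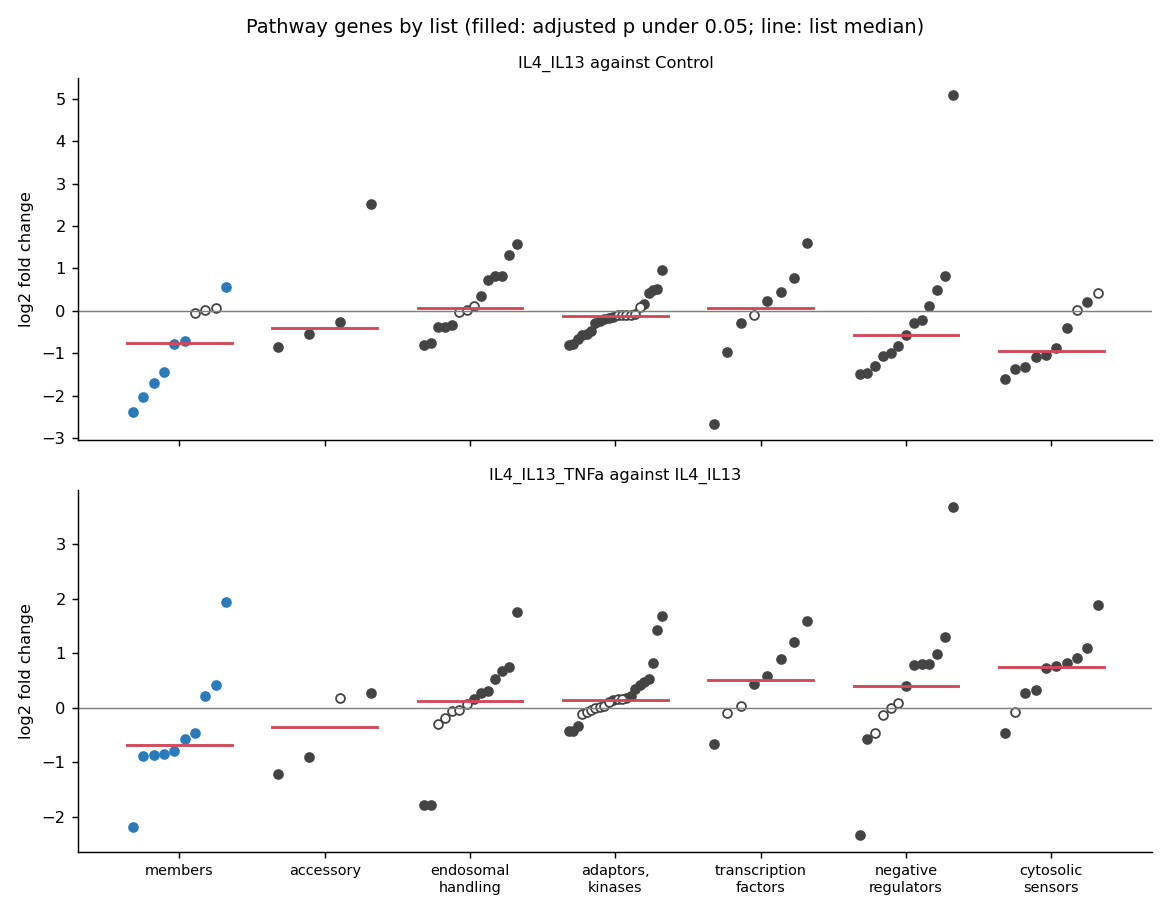
Log2 fold change of every tested gene of the lists, by list, for IL4_IL13 against Control (top) and added TNFα (bottom), with TMM scaling; filled points passed edgeR's threshold, open points did not, and the red line is the list's median. Called adaptors, negative regulators and cytosolic sensors lie mostly below 0 in the top panel and above it in the bottom one (adaptors 6 higher and 8 lower there with library totals alone), and the members lie mostly below 0 in both.

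Markers of other cell types were read in the same libraries. The 6 conventional dendritic cell markers summed to 1.36 to 3.69 CPM in Control and 34.9 to 37.8 CPM in IL4_IL13_TNFa, where Zbtb46 alone averaged 33.9 CPM and Xcr1 had no count. Neutrophil markers summed to at most 2.81 CPM in any library. The 6 stromal markers summed to 19.9 to 633 CPM in Control, 54.8 to 558 CPM in IL4_IL13 and 56.0 to 361 CPM in IL4_IL13_TNFa, lowest in Control 1, and the 4 endothelial markers to 5.62 to 22.7 CPM, 6.59 to 16.2 CPM and 1.88 to 3.42 CPM, highest in Control 1. The part of these cells in the members' values was not tested.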

How the data were processed

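Poly(A) RNA of macrophages was sequenced in 18 directional libraries, per the labels' protocols. The authors deposited raw read counts for each gene as whole numbers. The submitters' processing notes name FastQC 0.11.5, featureCounts 1.5.1, STAR (2.5.2, 2.5.2b), RSEM 1.3.0, bcl2fastq 2.20.0.422 and the build GRCm38 (mm10). No source used here gives their roles, the annotation or the strand setting.

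Gene IDs were matched to GENCODE M21 (48434 of 48794 rows had a symbol), which also gave exon lengths. In R 4.3.3 with edgeR 4.0.16, filterByExpr (minimum count 10) kept 13177 genes, which were scaled by TMM and fitted over all 18 libraries (robust quasi-likelihood). CPM values use TMM-scaled totals. Libraries were grouped by title. No library was a copy of another: over 45 pairs within groups, chi-square divided by its degrees of freedom was at least 2.72. Precision covers counting error and the spread of 6 libraries.

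The members and lists were chosen with earlier results of these data known. All members are named. Of each list, up to 3 genes with the largest called change (and 5 CPM or more on average in the higher group), the accessory genes, Unc93b1, Myd88 and Irak3 are named, and per member the gene of nearest profile. Ctss and Ctsb are named besides, as abundant proteases of their list. Pair ratios used scipy 1.17.1.

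Replicate numbers are taken as pairing the libraries, from the data and not from a label: after group means were removed, same-numbered libraries correlated in each of 18 pairs (r from 0.128 to 0.671), and 16 pairs were mutual best matches. The main tests, with their SE and p-values, did not use this pairing, and the replicate block below did. For Tlr9 in IL4_IL13 against Control the SE was 0.22 in the main fit and 0.09 with the block. Promoter windows from RefSeq matched 7 members. The scripts were tested on simulated counts.

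Alternatives were DESeq2 1.42.0 and its size factors, library totals, no filter, a filter of 5 CPM in 6 libraries, voom of limma 3.58.1, a replicate block, only the libraries compared, each library left out and the libraries numbered 1 left out. Levels per length were also computed with the longest transcript's length. The block without the libraries numbered 1, and levels per length without Control 1, were added after seeing the data. The gene nearest in profile to Cd14 is not reported here.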

Additional observations from a re-analysis of the deposited data

Results flagged for a closer look

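In 7 of the 30 combinations of member and group, 1 library lay so far from the other 5 that its gap passed Dixon's 95% critical value. Chance flags about 1 in 20 groups. Of the 7, 5 were Control 1, where Tlr8 stood at 165.3 CPM against 355.0 to 374.1 in the other Control libraries, Tlr7 at 230.2 against 423.1 to 470.2, Cd14 at 325.1 against 476.5 to 539.1, Tlr9 at 34.6 against 74.5 to 94.7 and Tlr1 at 29.2 against 49.6 to 60.8. The other 2 were in IL4_IL13 6, with Tlr13 at 220.0 CPM against 261.3 to 284.3 and Tlr3 at 11.7 against 15.2 to 17.1.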

How the results depend on the processing

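Of 840 values of the members' log2 fold changes under the alternatives, 814 kept their direction and their side of the threshold. Direction turned in 10, none of them called. In IL4_IL13 against Control, Tlr1 went to -0.0163 with library totals, -0.0067 with the stricter filter, -0.0934 without Control 1, -0.0807 without the libraries numbered 1 and -0.0808 with the replicate block as well. Tlr8 went to -0.068, -0.0515 and -0.0645 under the last 3 of these, and Tlr6 to 0.0208 with no filter. Against Control with all 3 cytokines, Tlr6 went to -0.0701 with library totals. Calls were lost for Tlr1 with library totals and for the rise of Tlr6 with TNFα under library totals, with no filter or a stricter one (adjusted p = 0.0793), and without single libraries. Tlr6 against Control was called with no filter (0.2546, adjusted p = 0.0257), without Control 3 (0.0428) and without IL4_IL13_TNFa 5 (0.0378). With 1 library left out, the uncalled values in IL4_IL13 against Control ran from -0.0934 to 0.0726 for Tlr1 and from -0.068 to 0.1367 for Tlr8. The cause was not tested. The counts of members called ran from 7 to 7, 8 to 10 and 8 to 10 in the 3 comparisons, and those of list genes from 55 to 67, 48 to 56 and 50 to 65, none beyond 1.5 times.

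Of 252 pair ratio values, 235 kept call and direction. The difference in Cd14 to Tlr4 with TNFα turned when 1 library was left out, to -0.0254 (without IL4_IL13 1 or 2), -0.0201 (without IL4_IL13 3), -0.0171 and -0.0759 (without IL4_IL13_TNFa 5 or 6), in a range up to 0.0953. Tlr7 to Tlr8 with TNFα lost its call without the libraries numbered 1 (exact adjusted p = 0.0529). The replicate block in edgeR called 7, 10 and 9 members and changed no member's call. Pairing by number ended only the call of Tlr1 to Tlr6 in IL4_IL13_TNFa against Control. The calls that stayed all had the lowest raw p that 6 pairs can give in that exact test, 0.0312 (exact adjusted p = 0.0468). That test therefore could not rank them, and their staying adds little. Depth limits Tlr9 in IL4_IL13_TNFa most, at 52 to 94 reads a library.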
